A study of Mus musculus with 6 samples.

Results

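The genes described here are 4 chemokines, Cxcl9, Cxcl10, Cxcl11 and Cxcl16, and the receptors they act on, Cxcr3 and Cxcr6. They were chosen by symbol, and 5 of the 6 were read from the 31053 features of each matrix. Cxcl11 was not among the features by symbol or gene identifier, so it was not analysed here. The data are single-cell RNA counts of YUMMER1.7 tumours, a mouse melanoma line, from 6 libraries: exercise 5, 6 and 8 and sedentary 1, 2 and 3. All mice were C57Bl/6 males of 6 to 8 weeks with 600000 cells injected under the skin. Mice of the exercise group ran on a treadmill at 12 m/min for 45 min a day on 14 consecutive days, and the others were kept sedentary. Whole tumours were digested with Collagenase H and DNase for 15 min at 37 °C and passed through a 100 µm strainer, with no sorting. The labels give each library its own number, name no batch and do not say whether animals were pooled, so p-values between groups measure the spread between these libraries. The question was which cells of the tumour carried the RNA of each ligand and receptor, and whether running changed it.

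Cxcl9, Cxcl10 and Cxcl11 are small secreted chemokines switched on by interferon gamma, and all act on Cxcr3, a receptor of activated T cells and NK cells. Cxcl16 is made as a membrane-bound protein that Adam10 and Adam17 can release, and it acts on Cxcr6, a receptor known from effector and tissue-resident CD8 T cells. In tumours the axes are known for bringing in T cells and for holding them close to dendritic cells and macrophages.

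In GENCODE M21 (build GRCm38) Cxcl9 lies on chromosome 5 from 92321347 to 92328079 and Cxcl10 from 92346638 to 92348889, both on the minus strand with 18558 bases between them. Cxcl11, on the same strand from 92359544 to 92365485, is annotated there as a polymorphic pseudogene. Cxcl16 lies on chromosome 11 from 70453983 to 70459984 (minus strand), Cxcr3 on chromosome X from 101731535 to 101734269 (minus strand) and Cxcr6 on chromosome 9 from 123806475 to 123811760 (plus strand). Genes on the opposite strand overlap 3 of them: Art3 overlaps Cxcl10, Zmynd15 overlaps Cxcl16 and Fyco1 overlaps Cxcr6. Whether the counting used strand is not given in the sources used here. Pooled levels of these partners differed from those of the members: Art3 was at 0.0619 CPM (UMIs of the gene per 1000000 UMIs of the class, not divided by length since only the 3′ end of each molecule is read) where Cxcl10 was at 134 CPM, in the main population described below. Fyco1 was at 37.8 CPM and Cxcr6 at 464 CPM in CD8 T cells. Zmynd15 was at 106 CPM and Cxcl16 at 638 CPM in macrophages.

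The 250 bases before the start of Cxcl9 and of Cxcl10 are shown because the neighbours were found in the same cells (below) yet at different levels in different cell classes. Both sequences are from RefSeq (GRCm38.p6), minus strand, written 5′ to 3′. Capitals mark matches to an interferon-stimulated response element (ISRE, GAAA and GAAA with any 2 bases between) or to an NF-kB site (GGGA and TTCC with any 2 bases between, or GGGA and TTCC with 1 base between), searched on both strands.
Cxcl9, chr5:92328080-92328329: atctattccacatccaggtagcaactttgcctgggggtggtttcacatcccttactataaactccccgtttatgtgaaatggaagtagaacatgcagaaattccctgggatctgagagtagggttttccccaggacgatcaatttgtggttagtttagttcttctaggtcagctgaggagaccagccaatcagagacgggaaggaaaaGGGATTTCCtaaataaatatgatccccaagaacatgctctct
Cxcl10, chr5:92348890-92349139: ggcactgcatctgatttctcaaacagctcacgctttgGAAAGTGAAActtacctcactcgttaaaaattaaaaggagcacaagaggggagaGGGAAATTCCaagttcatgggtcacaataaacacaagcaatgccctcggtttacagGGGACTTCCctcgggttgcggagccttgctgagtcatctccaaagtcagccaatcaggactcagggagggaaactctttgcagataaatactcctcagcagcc
The Cxcl10 window held 1 ISRE match, from -213 to -204 relative to the start, and 2 NF-kB matches, from -159 to -150 and from -103 to -95. The Cxcl9 window held 1 NF-kB match, from -42 to -34, and no ISRE match. Among 27025 promoter windows of the same length, 3.04% held the ISRE letters, 1.17% held the NF-kB letters with 2 bases between and 1.42% those with 1 base between. The letters TTCNNNGAA of the interferon gamma activated site, found in 7.18% of windows, were in neither. These matches describe letters only and share no bases with each other.

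The libraries held 97426009 to 131778565 UMIs (unique molecular identifiers, 1 per captured RNA molecule), and 51406 cells were kept, 7119 to 9800 a library. Median UMIs per cell were 5902 in exercise 5 and 6499 in sedentary 2, against 10473 to 12426.5 in the other 4 libraries. Cell barcodes shared by a pair of libraries numbered 16 to 29. Cells were put in classes by marker genes, none of them a member. No gate took 4056 cells with a Ptprc UMI and 13199 cells without one. The classes held 2678 CD8 T cells, 143 CD4 T cells without Foxp3, 207 Foxp3 T cells, 689 NK cells, 4364 C1q macrophages, 1762 Ly6c2 monocytes and 513 Mgl2 MHC-II high myeloid cells. The largest class, 21844 cells, had Cspg4, Cdh2 or Nes and no Ptprc, the pan-leukocyte gene. Pigment cell genes were almost absent from it, where 484336293 UMIs included 1 of Sox10, 5 of Dct, 5 of Mlana and 3 of Tyr (Mitf was at 9.28 CPM), so it is called the main population and not melanoma cells. T cell receptor gene Trac, which no gate used, stood at 571 CPM in CD8 T cells and 0.502 CPM in the main population, and Lyz2 at 5461 CPM in macrophages and 4.64 CPM in the main population.

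Among the ligands, Cxcl9 RNA was highest in C1q macrophages and other myeloid cells of the classes with at least 20 cells in a library. Levels over such libraries averaged 1501 ± 268 CPM in C1q macrophages, 1047 ± 556 CPM in Mgl2 cells and 991 ± 383 CPM in Ly6c2 monocytes (SD, n = 6 each). Xcr1 dendritic cells, which present antigen to CD8 T cells, averaged 613 ± 394 CPM (n = 4) and fibroblasts 569 ± 353 CPM (n = 5). The ranges of these 5 classes overlapped their neighbours in the order, so that order is not firm. Endothelial cells, 30 in all and 3 to 8 a library, had 1947 CPM pooled (95% Poisson interval 1741 to 2171), with 218 of their 324 Cxcl9 UMIs in 4 cells of sedentary 3. All 5 stood above the main population at 34.7 ± 13.9 CPM and CD8 T cells at 21.5 ± 9.11 CPM (n = 6 each), a level that free RNA in the droplets could also give and that was not tested.

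Cxcl10 had another order. Ly6c2 monocytes averaged 1323 ± 417 CPM, neutrophils 567 ± 597 CPM, Mgl2 cells 543 ± 396 CPM and C1q macrophages 535 ± 117 CPM (n = 6 each). The neutrophil mean rests on few UMIs in shallow cells, with 2 to 233 UMIs of Cxcl10 a library. The main population stood at 135 ± 41.2 CPM, and CD8 T cells at 41.2 ± 16.0 CPM. Over 121 pooled plasmacytoid dendritic cells it was at 7.72 CPM (95% Poisson interval 2.51 to 18.01). Monocytes exceeded neutrophils in 6 of 6 libraries, while the next classes overlapped.

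Of the classes with at least 20 cells in a library, Cxcl16 was highest in C1q macrophages. C1q macrophages averaged 639 ± 56.1 CPM (n = 6), from 582 to 736 CPM, above every library of the next class. Mgl2 cells averaged 384 ± 87.1 CPM (n = 6), Xcr1 dendritic cells 212 ± 60.9 CPM (n = 4) and monocytes 194 ± 48.8 CPM (n = 6). Monocytes lay above every library of fibroblasts, at 22.9 ± 23.8 CPM (n = 5). The main population averaged 0.866 ± 0.263 CPM. Ccr7 mature dendritic cells, a migratory state, had only 1 to 17 cells a library and were not ranked. Over their 54 cells pooled Cxcl16 was at 612 CPM (95% Poisson interval 537 to 694, counting error only), with a UMI in 92.6% of cells. By library it ran from 379 CPM in exercise 5 to 1322 CPM in sedentary 3. Macrophages of these 2 libraries had 598 and 582 CPM, so which class was higher is not settled.

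**Figure D1:**
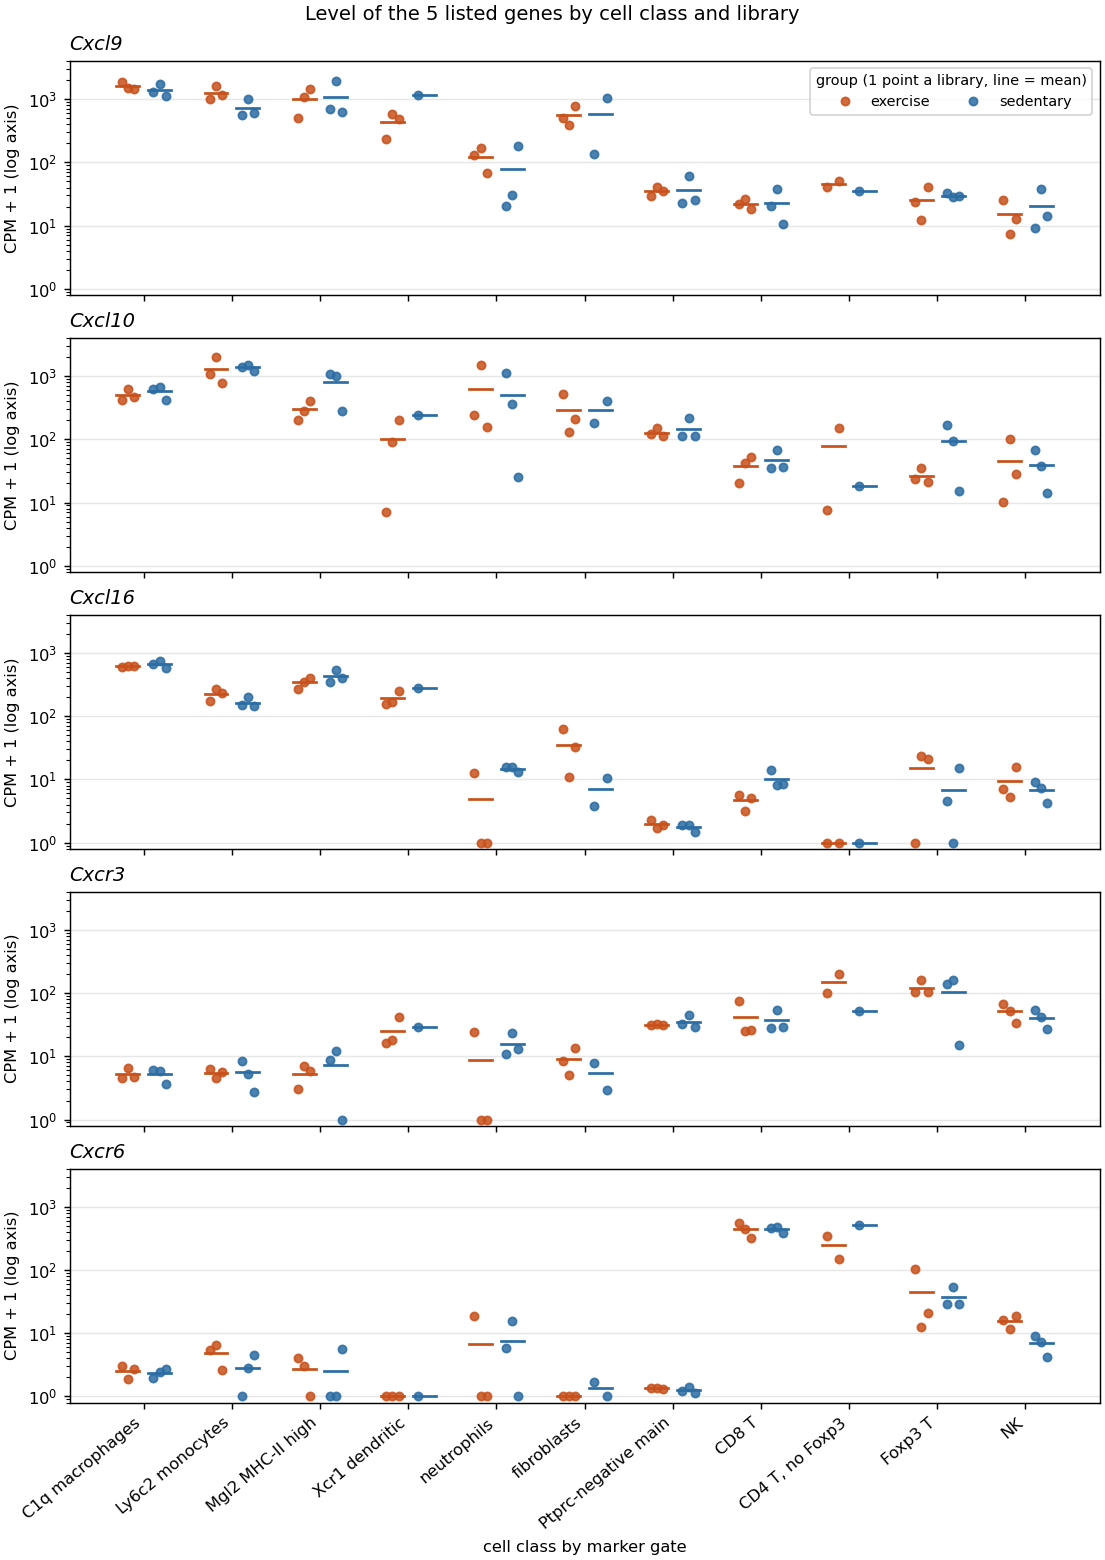
Level of each gene (CPM + 1, log axis) by cell class, with 1 point per library that had at least 20 cells, exercise left and sedentary right, and a line at each group's mean. Cxcl9, Cxcl10 and Cxcl16 are high in myeloid classes, Cxcr6 is high in T cells (439 CPM in CD8 T cells) and low in the other classes, and Cxcr3 is spread over T cells, NK cells and the main population (32.6 CPM).

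Class contrasts with the library as a block, by edgeR's quasi-likelihood test with Benjamini-Hochberg adjustment over all genes, put numbers on these differences. C1q macrophages against Ly6c2 monocytes had 3 of 5 members past 0.05, where 43% of the 10929 genes tested passed. Cxcl9 was higher in macrophages (by 0.59 on the log2 scale, with an SE of 0.10, adjusted p = 7.37e-06 by edgeR), as was Cxcl16 (1.66, SE 0.09, adjusted p = 4.82e-16), and Cxcl10 was lower (-1.35, SE 0.08, adjusted p = 5.67e-15). Macrophages thus carried more Cxcl9 and Cxcl16 and less Cxcl10 than monocytes of the same tumours. In Mgl2 cells against macrophages, 2 of 4 members tested passed, against 21.4% of genes: Cxcl9 was lower (-0.58, SE 0.14, adjusted p = 0.00189 by edgeR) and Cxcl16 was lower (-0.70, SE 0.09, adjusted p = 6.65e-08). Cxcl10 gave -0.15 there (95% interval -0.46 to 0.17), but passed lower with a stricter gate (-1.16, adjusted p = 9.72e-05 by edgeR) and without sedentary 1 (-0.39, adjusted p = 0.0494 by edgeR). Macrophages against the main population had all 5 members past the threshold, with 77.2% of genes passing. The log2 fold changes by edgeR there were 9.53 for Cxcl16, 5.47 for Cxcl9, 2.24 for Cxcr6, 1.97 for Cxcl10 and -2.98 for Cxcr3.

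Of the interferon gamma list of 11 genes, in macrophages against monocytes, 0 of 9 tested genes passed higher and 8 passed lower, with a median log2 fold change of -0.61, against 0.02 over all genes, of which 43% passed in either direction. Gbp2, a guanylate binding protein induced by interferon, was lower by edgeR (-1.61, SE 0.08), as was the transcription factor Irf1 (-1.05, SE 0.08). Of the other T cell chemokines, 4 of 6 tested passed higher in macrophages and 0 lower. Pf4, a platelet factor chemokine also made by macrophages, gave 6.18 (SE 0.12) and Ccl17, a ligand of Ccr4, gave 2.60 (SE 0.49). The inflammatory chemokines Ccl3 and Ccl4 gave 1.37 (SE 0.17) and 1.09 (SE 0.16). The list of ligand processing and clearance genes had 0 of 3 passing. Its release proteases averaged 114 ± 15.1 CPM for Adam17 and 78.2 ± 5.87 CPM for Adam10 in macrophages, against 96.3 ± 15.3 CPM and 68.0 ± 8.5 CPM in monocytes (SD, n = 6). Of the other T cell trafficking receptors 1 passed higher and 2 lower of 5, and of the retention and state genes 1 higher and 3 lower of 5. Receptor signalling genes passed higher in 1 and lower in 4 of 8, and Gnai2, the inhibitory G protein subunit used by chemokine receptors, averaged 930.4 ± 18.4 CPM in macrophages and 1030.3 ± 51.7 CPM in monocytes.

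Level and number of cells together set where the RNA of a tumour lay, and here the ligands parted. C1q macrophages held 43.9% of all Cxcl9 UMIs (34.6% to 61.2% by library) and the main population 19.9%. For Cxcl10 the main population held 51.8% (47.6% to 57.4%), macrophages 9.94% and monocytes 6.75%, although its CPM was lower in the main population than in either. Macrophages held 68.6% of Cxcl16 UMIs (62.5% to 72.4%). Of the receptors, CD8 T cells held 71.9% of Cxcr6 UMIs (58.0% to 77.9%), whereas they held 2.20% of Cxcr3 UMIs and the main population held 78.0% (68.4% to 83.4%). Cells of no gate with no Ptprc UMI added 22.0% of Cxcl10 and 11.3% of Cxcr3. These shares follow cell numbers and UMIs per cell: main population cells had medians of 17111 to 26620 UMIs, CD8 T cells 2372 to 3694.5.

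**Figure D2:**
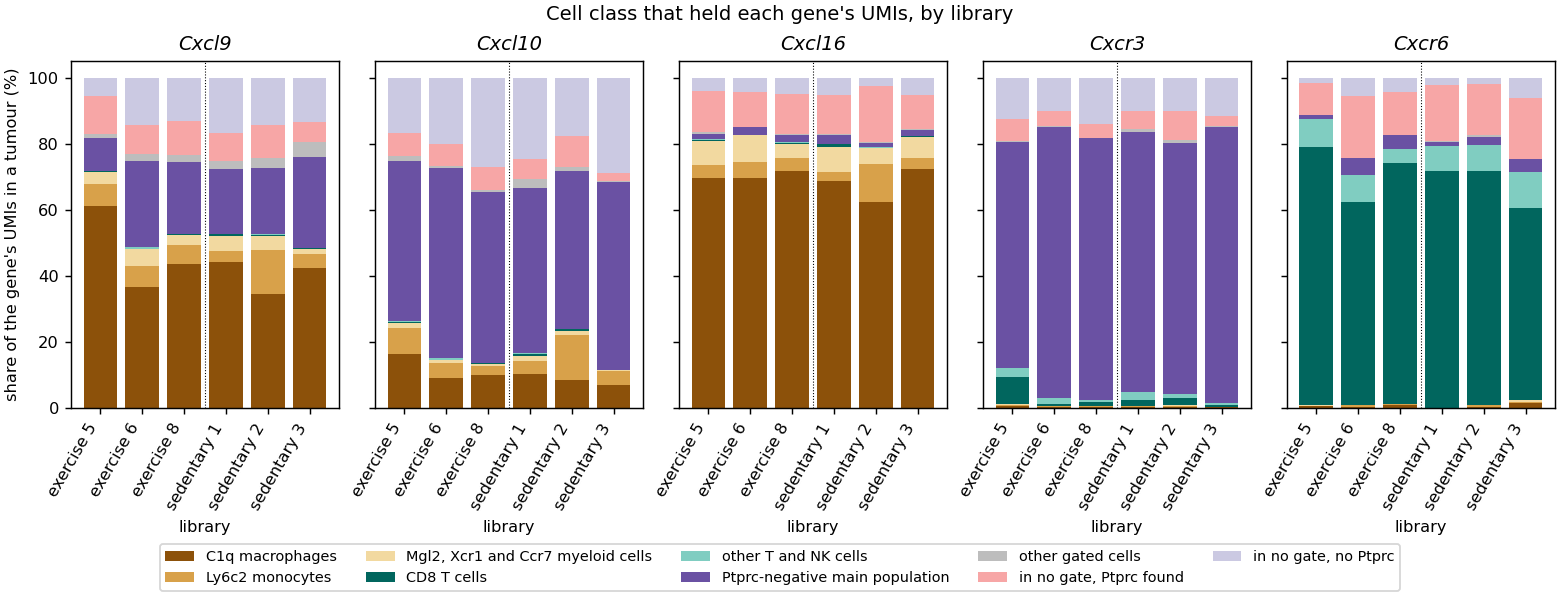
Share of each gene's UMIs in a tumour (%) that came from each cell class, 1 bar per library with exercise bars left of the dotted line and sedentary bars right of it. Macrophages make up most of each Cxcl16 bar (68.6% pooled), CD8 T cells most of each Cxcr6 bar (71.9%), and the main population most of each Cxcr3 bar (78.0%).

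Within a class the ligands differed in how few cells carried them. The 10% of macrophages with the most Cxcl16 held 29.8% to 34.4% of its UMIs, and 72.9% to 81.7% of macrophages had at least 1. For Cxcl9 the top 10% of macrophages held 51.2% to 63.6%, and for Cxcl10 70.7% to 85.5%. In the main population the top 10% of cells held 89.6% to 97.6% of Cxcl10, and single cells reached 230 to 399 UMIs, depending on the library. Cxcl10 of that class was thus carried by a small share of cells in every library, with 15.2% to 32.9% of cells having any UMI.

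Cxcl9 and Cxcl10 were found in the same cells more than in others. Among macrophages with a Cxcl9 UMI, Cxcl10 had a median over libraries of 625 CPM, against 330 CPM in macrophages without one, and was higher in 6 of 6 libraries. The same held in monocytes (2123 and 880 CPM with and without Cxcl9) and in the main population (409 and 90.8 CPM), in 6 of 6 libraries each. In Mgl2 cells it held in 5 of 6 libraries (529 and 171 CPM). Cxcl16 differed less, with 648 CPM in macrophages with Cxcl9 and 566 CPM in those without, higher in 6 of 6 libraries. Cells with more UMIs are more likely to show any gene, which CPM corrects only in part, and these values are a description with no test.

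Among the receptors, Cxcr6 RNA was found in T cells and was low elsewhere. CD8 T cells had 553, 443 and 320 CPM in exercise 5, 6 and 8, against 454, 484 and 378 CPM in sedentary 1, 2 and 3. CD4 T cells without Foxp3 averaged 338 ± 184 CPM in the 3 libraries with 20 cells, and their range overlapped that of CD8 T cells. Foxp3 T cells averaged 40.4 ± 33.0 CPM and NK cells 10.3 ± 5.53 CPM (n = 6). Other T cells, those that entered none of the CD8, CD4 and Foxp3 classes, averaged 247 ± 87.9 CPM (n = 6), above every library of Foxp3 T cells. This class takes in cells with no such marker and cells with CD8 markers together with Cd4 or Foxp3. In macrophages Cxcr6 averaged 1.46 ± 0.468 CPM, and in the main population 0.304 ± 0.0983 CPM. With each cell thinned to 1000 UMIs, Cxcr6 was found in 28.0% to 44.9% of CD8 T cells, 0.265% to 2.23% of NK cells, 0.0734% to 0.214% of macrophages and 0.0170% to 0.0936% of main population cells. Unthinned, the share was 60.7% to 77.1% in CD8 T cells and 0.283% to 1.16% in the main population. Shallower cells were left out, 202 of the exercise and 106 of the sedentary CD8 T cells.

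CD8 T cells against NK cells gave a Cxcr6 log2 fold change of 5.33 (SE 0.18, adjusted p = 6.03e-17 by edgeR), the 1 of 4 members tested that passed, where 29.4% of genes did. Foxp3 T cells against CD4 T cells without Foxp3 gave -2.63 (SE 0.42, adjusted p = 3.67e-06 by edgeR, 3 libraries), 1 of 2 members tested, where 3.87% of genes passed. Without exercise 5, 2 libraries are left and Cxcr6 is removed by the filter on low counts, so that no call is made. CD8 against CD4 T cells gave 0.75 for Cxcr6 (95% interval 0.24 to 1.26, adjusted p = 0.0894 by edgeR, 3 libraries). Of 4 members tested 0 passed, where 3.49% of genes did, and 1 had an unadjusted p under 0.05, as did 931 of 6766 genes. DESeq2 was run for the exercise comparisons only. Beside Cxcr6, CD8 T cells against NK cells had Pdcd1 (5.36, SE 0.20), Tox (2.54, SE 0.14) and Ifng (2.30, SE 0.14) higher. The interferon gamma list had 1 of 9 higher and 4 lower, retention and state genes 4 higher and 3 lower of 8, and other chemokines 2 higher and 1 lower of 4. Other T cell trafficking receptors had 1 higher and 2 lower of 4, ligand processing genes 1 higher of 3 and receptor signalling genes 1 lower of 7.

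By mean level, Cxcr3 RNA was lower than Cxcr6 RNA in CD8, CD4 and other T cells, and higher in Foxp3 T cells, NK cells, macrophages and the main population. The Cxcr3 means were 117 ± 75.7 CPM in CD4 T cells (n = 3), 113 ± 55.0 CPM in Foxp3 T cells, 84.7 ± 18.02 CPM in other T cells, 45.2 ± 15.1 CPM in NK cells and 38.6 ± 20.5 CPM in CD8 T cells (n = 6 each). Every neighbour in this order overlapped the next. CD8 T cells had 74.2, 24.2 and 24.6 CPM in the exercise libraries and 27.2, 52.9 and 28.3 CPM in the sedentary ones. Exercise 5 and sedentary 2 were thus the highest of each group. Both libraries were low in depth over all cells, but not in every class. Among CD8 T cells, exercise 5 had the lowest median of its group (2372 UMIs), while sedentary 2 (3186.5) lay above sedentary 3 (2607). Main population medians were highest in exercise 5 and sedentary 2 (22718 and 26620 UMIs). The part of depth in these Cxcr3 levels was not tested. In CD8 against NK cells Cxcr3 gave -0.28 (95% interval -0.71 to 0.15) and in Foxp3 against CD4 T cells 0.18 (95% interval -0.68 to 1.04), neither passing. Plasmacytoid dendritic cells, which sense viral nucleic acid, had 67.9 CPM over 121 pooled cells (95% Poisson interval 49.4 to 91.2).

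The ratio of Cxcr3 to Cxcr6 UMIs by library was 0.0547 to 0.134 in CD8 T cells, 0.10 to 1.33 in CD4 T cells (3 libraries), 0.50 to 14.0 in Foxp3 T cells, 1.83 to 8.00 in NK cells and 82.2 to 191 in the main population. The ranges of CD4 and CD8 T cells, of CD4 and Foxp3 T cells and of Foxp3 T cells and NK cells overlapped. Among CD8 T cells with a Cxcr3 UMI, 46.2% to 75.0% also had one of Cxcr6, against 60.5% to 77.3% of those without, and the Cxcr6 level among Cxcr3 cells was higher in 4 of 6 libraries.

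Cxcr3 in the main population stood at a level close to that of CD8 T cells, a comparison chosen after its values were seen. The main population had 30.6, 32.0 and 29.9 CPM in the exercise libraries and 31.3, 43.5 and 28.2 CPM in the sedentary ones. CD8 T cells against it gave 0.15 for Cxcr3 (95% interval -0.17 to 0.47, adjusted p = 0.395 by edgeR), while the other 4 members passed, with 70.9% of genes passing. Of these, Cxcl9 gave -0.71, and -0.27 (adjusted p = 0.0661 by edgeR) with doublets kept. The ratio of the CD8 T cell level to the main population level within a library had a median of 0.937 for Cxcr3 (0.758 to 2.43). Cxcr6 had 1364, Trac 1213, Nkg7 (a cytotoxic granule gene) 1618 and Lck (the T cell receptor kinase) 847. Ccl5, a chemokine of cytotoxic T cells, had 26.1. Free RNA in the droplets was not measured, and its part in these levels was not tested. Other receptors of T cell trafficking were near 0 in the main population: S1pr1, the sphingosine phosphate receptor that directs exit from tissue, averaged 0.838 ± 0.242 CPM, and the chemokine receptors Cx3cr1 0.713 ± 0.222 CPM and Cxcr4 0.524 ± 0.404 CPM, against 32.6 ± 5.51 CPM for Cxcr3.

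**Figure D3:**
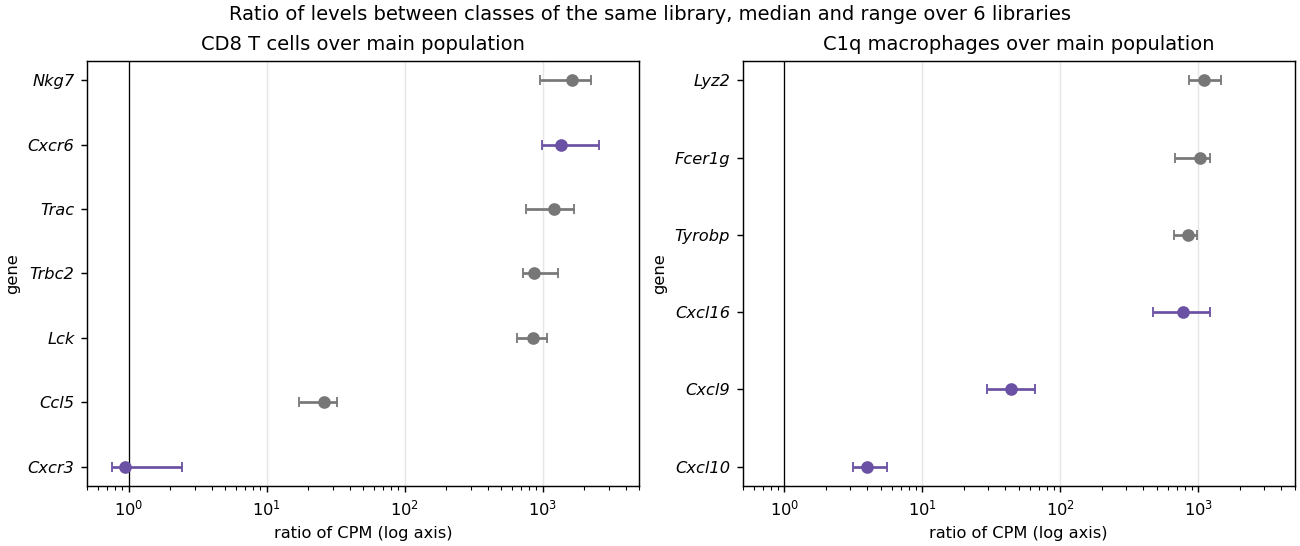
Ratio of levels (CPM, log axis) between classes of the same library, CD8 T cells over the main population (left) and C1q macrophages over the main population (right), with the median and range of 6 libraries and the members in violet. Cxcr3 lies at 0.937 while Cxcr6 lies among the T cell genes at 1364. Cxcl10 lies at 3.96 while Cxcl16, at 780, lies just below the macrophage genes (843 to 1098).

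By cell, at 1000 UMIs each, Cxcr3 was found in 2.19% to 3.42% of main population cells, 2.57% to 9.40% of CD8 T cells, 3.14% to 6.08% of NK cells and 0.193% to 0.645% of macrophages. Unthinned it was in 24.97% to 40.04% of main population cells and 6.54% to 21.1% of CD8 T cells, whose median depths differ as given above. Single main population cells held up to 16 to 38 UMIs by library, CD8 T cells up to 2 to 5, and the top 10% of main population cells held 58.7% to 71.7% of its Cxcr3. Main population cells with an Mki67 UMI, a proliferation gene, had a median of 37.5 CPM of Cxcr3, against 23.7 CPM in those without, higher in 5 of 6 libraries. Cells with Mki67 were also deeper, with medians of 24428.5 to 33127.5 UMIs by library, against 14487.5 to 22023 in those without. Neither the difference in Cxcr3 nor the part of depth in it was tested. Cxcr3 has no overlapping gene in the annotation. The matrices do not show whether these UMIs come from whole transcripts, and protein was not measured.

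Between 2 CD8 T cell states, set by Havcr2 and Tcf7, the receptors differed in opposite directions in 3 libraries. Havcr2 marks CD8 T cells late in exhaustion and Tcf7 marks their stem-like pool. In Havcr2 cells without Tcf7, against Tcf7 cells without Havcr2, Cxcr3 was lower (by -1.85 on the log2 scale, with an SE of 0.41, adjusted p = 0.00126 by edgeR) and Cxcr6 higher (0.79, SE 0.20, adjusted p = 0.00638 by edgeR). These were 2 of 3 members tested, where 6.7% of genes passed, in the 3 libraries with 20 cells of each state. By library, Cxcr3 was at 40.3, 21.2 and 27.9 CPM in the Havcr2 cells of exercise 5, sedentary 1 and sedentary 2, against 146, 76.7 and 95.5 CPM in their Tcf7 cells. The Tcf7 cells of these libraries numbered 29, 24 and 20 and held 11, 9 and 7 Cxcr3 UMIs. Cxcr6 was at 485, 434 and 468 CPM in the Havcr2 cells, against 399, 162 and 259 CPM in the Tcf7 cells. Cxcr3 was lower and Cxcr6 higher in Havcr2 cells in 3 of 3 libraries, but neither call held without sedentary 2, where Cxcr3 gave -1.89 (adjusted p = 0.0599 by edgeR) and Cxcr6 0.76 (adjusted p = 0.199). Without sedentary 1, Cxcr6 gave 0.50 (adjusted p = 0.284 by edgeR). The 1687 CD8 T cells with neither gene had 503 CPM of Cxcr6 pooled over libraries, against 438 CPM in Havcr2 and 212 CPM in Tcf7 cells. Their Cxcr3 was at 55.9 CPM, between 25.9 CPM in Havcr2 and 98.1 CPM in Tcf7 cells. By pooled CPM, Cxcr6 was thus not highest in Havcr2 cells, though in exercise 8 alone they exceeded cells with neither gene (347 and 325 CPM). By cell, a Cxcr6 UMI was found in 78.7% of Havcr2 cells and 67.5% of cells with neither. The latter were shallower, with medians of 2123 and 3679.5 UMIs in exercise 5 for neither and Havcr2 cells. The difference between these was not tested.

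Of the genes of T cell retention and state, 4 passed higher and 2 lower of 8 tested, but Havcr2 and Tcf7, which chose the states, are 1 of each. Pdcd1, the PD-1 checkpoint gene, gave 1.32 (SE 0.30), Tox, an exhaustion transcription factor, 0.89 (SE 0.25), and Mki67 2.78 (SE 0.31). Cd69, a retention marker, gave -1.63 (SE 0.36). Of the other receptors, S1pr1 (-5.67, SE 0.81) and Ccr7 (-5.43, SE 0.98), the receptors of tissue exit and lymph node entry, passed lower, 2 of 5 tested. Of the interferon gamma list, 2 of 9 passed higher, Ifng itself (5.80, SE 0.45) and Irf8 (1.70, SE 0.31), and 3 lower, the kinase gene Jak1 and the receptor gene Ifngr1 among them. Of 4 other chemokines, Ccl3 (6.30, SE 0.41) and Ccl4 (6.26, SE 0.29) passed higher and Xcl1, the ligand of Xcr1, lower (-1.18, SE 0.26). Ligand processing and receptor signalling genes had 0 passing by edgeR, of 3 and 7 tested. At an unadjusted p under 0.05 were 1 and 0 of them, and 1048 of all 6091 genes.

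CD8 T cells in cycle had less of both receptors as a share of their UMIs, a comparison also chosen after values were seen. Cells with Mki67, against those without, gave -1.61 for Cxcr3 (SE 0.17, adjusted p = 2.75e-08 by edgeR) and -0.70 for Cxcr6 (SE 0.07, adjusted p = 3.26e-08). All 4 members tested passed lower, Cxcl9 at -1.19 and Cxcl10 at -1.08 among them, and 30.2% of genes passed. With doublets kept, Cxcl9 gave -0.52 (adjusted p = 0.0796 by edgeR). Cxcr6 stood at 393, 373 and 264 CPM in the Mki67 cells of exercise 5, 6 and 8 and at 299, 398 and 271 CPM in those of sedentary 1, 2 and 3. Without Mki67 the values were 684, 524 and 399.8 CPM in exercise 5, 6 and 8 and 610.2, 538 and 469 CPM in sedentary 1, 2 and 3. By CPM, cells with Mki67 were lower in 6 of 6 libraries for both receptors. By cell, Cxcr6 went the other way when pooled over libraries. A Cxcr6 UMI was found in 75.5% of cells with Mki67 (1571 UMIs in 816 cells) and in 67.7% of those without (2912 UMIs in 1862 cells). Cxcr3 was found in 10.4% and 16.0% of them. Cells with Mki67 also held more UMIs, medians of 4349 to 6830, against 2004 to 3048 in those without, and the part of depth in the difference was not tested.

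**Figure D4:**
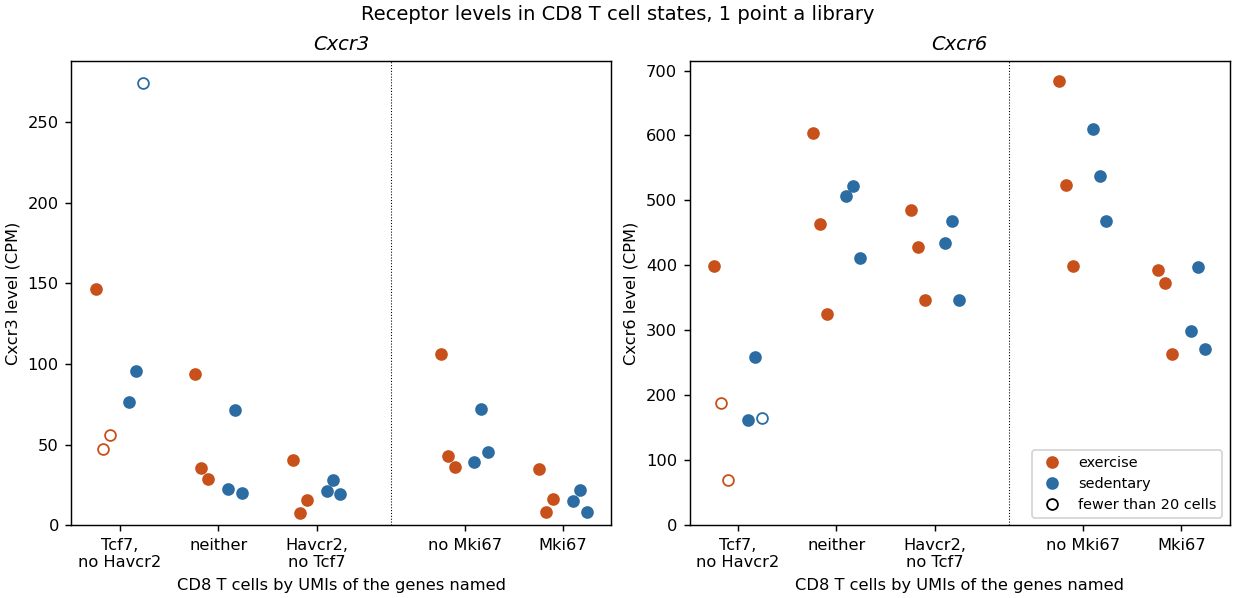
Levels of Cxcr3 (left) and Cxcr6 (right) in CD8 T cells (CPM) by the Tcf7 and Havcr2 UMIs of the cell and, right of the dotted line, by Mki67, with 1 point per library, exercise left of sedentary and open points for fewer than 20 cells. In the 3 libraries with 20 Tcf7 cells without Havcr2, these have higher CPM of Cxcr3 and lower CPM of Cxcr6 than Havcr2 cells without Tcf7. Both receptors have lower CPM in cells with Mki67.

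Between exercise and sedentary tumours no member passed the threshold in any of 9 comparisons. Of 45 pairs of a member and a class, 30 were tested by edgeR, 0 passed and 3 had an unadjusted p under 0.05, and DESeq2 called 0. These 3 were 1 each in monocytes, Mgl2 cells and CD8 T cells. An unadjusted p under 0.05 by edgeR was found there for 347 of 5992, 209 of 4064 and 263 of 8834 genes. The background was 0% of genes called by edgeR in 7 comparisons, 0.105% in neutrophils and 0.0234% in NK cells. In those 7, 42 to 563 genes had an unadjusted p under 0.05 and DESeq2 called 0 to 39 genes. In bulk sums such as the whole tumour, fewer cells of a type and less RNA per cell cannot be told apart.

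The 3 libraries of one group lay wholly outside the range of the other for 4 of the 45 pairs. Exercise was higher for Cxcl9 in monocytes, where 10.7% of the genes tested were separated in this way in either direction, and for Cxcr6 in NK cells, where 8.74% were. Exercise was lower for Cxcl16 in CD8 T cells (8.39% of genes) and in neutrophils (15.5% of genes). Cxcr6 in NK cells and Cxcl16 in neutrophils were removed by the filter on low counts and so are not among the genes these shares count. In the other 5 comparisons no member was separated, where 6.76% of genes were in whole tumours, 8.6% in the main population, 8.03% in macrophages, 10.4% in Mgl2 cells and 8.78% in Foxp3 T cells.

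Cxcl9 in whole tumours was at 192, 113 and 111 CPM in exercise 5, 6 and 8, against 76.6, 199 and 66.0 CPM in sedentary 1, 2 and 3. In macrophages it was at 1846, 1493 and 1469.9 CPM in the exercise libraries and 1308, 1757 and 1130.3 CPM in the sedentary ones, with a log2 fold change of 0.18 (95% interval -0.20 to 0.56). Monocytes showed the clearest Cxcl9 difference. They had 1020.0, 1607 and 1151 CPM in exercise 5, 6 and 8, and 569, 989.8 and 606 CPM in sedentary 1, 2 and 3, so every exercise library was above every sedentary one. The log2 fold change was 0.76 (SE 0.21, unadjusted p = 0.00321, adjusted p = 0.644 by edgeR), which does not pass over all genes. With no filter on low counts it passed, at 0.72 (SE 0.14, adjusted p = 0.000104 by edgeR), a near-equal estimate with a smaller SE. With any library left out it did not pass.

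Cxcl10 fell short of the threshold as well. Mgl2 cells had 203, 279.9 and 401 CPM in the exercise libraries, against 1083, 1011 and 282 CPM in the sedentary ones, with sedentary 3 inside the exercise range. The log2 fold change was -1.49 (SE 0.37, unadjusted p = 0.00139, adjusted p = 0.687 by edgeR). With no filter on low counts it passed (-1.47, SE 0.18, adjusted p = 8.98e-14 by edgeR), a near-equal estimate with a smaller SE. It also passed without sedentary 3 (-1.88, adjusted p = 0.00759 by edgeR). In macrophages Cxcl10 gave -0.20 (95% interval -0.62 to 0.21), in monocytes -0.12 (-0.66 to 0.42) and in the main population -0.21 (-0.81 to 0.40). The main population had 118, 148 and 111 CPM in exercise 5, 6 and 8 and 111.0, 214 and 109.8 CPM in sedentary 1, 2 and 3.

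Cxcl16 in macrophages was at 598, 619 and 629.9 CPM in the exercise libraries and 669, 736 and 582 CPM in the sedentary ones, with overlapping groups and a log2 fold change of -0.12 (95% interval -0.39 to 0.14). In monocytes it gave 0.39 (95% interval -0.01 to 0.78) and in Mgl2 cells -0.36 (-0.80 to 0.07). In CD8 T cells it gave -1.30 (SE 0.41, unadjusted p = 0.00639 by edgeR, not passing after adjustment), on 14, 2 and 6 UMIs in exercise 5, 6 and 8, against 27, 12 and 4 UMIs in sedentary 1, 2 and 3.

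The receptors did not pass either. Cxcr6 in CD8 T cells gave -0.03 (95% interval -0.39 to 0.32), with overlapping groups. Cxcr3 gave 0.25 in CD8 T cells (95% interval -0.55 to 1.04), 0.10 in Foxp3 T cells (-0.91 to 1.11), 0.34 in NK cells (-0.40 to 1.08) and -0.15 in the main population (-0.51 to 0.21). In Foxp3 T cells Cxcr3 was at 101, 158 and 101 CPM in the exercise libraries, on 9, 14 and 5 UMIs, and at 139, 161 and 14.0 CPM in the sedentary ones, on 40, 12 and 1 UMIs. Cxcr6 in NK cells, filtered out of the test, was at 15.3, 10.8 and 17.8 CPM in exercise 5, 6 and 8 and 8.19, 6.23 and 3.25 CPM in sedentary 1, 2 and 3, on 1 to 6 UMIs a library. Whole-tumour Cxcr6 was at 23.0, 5.20 and 5.29 CPM in exercise 5, 6 and 8, against 10.9, 11.0 and 2.87 CPM in sedentary 1, 2 and 3, beside CD8 T cell shares of 11.4%, 3.29% and 4.05% in the exercise libraries and 5.90%, 6.15% and 1.77% in the sedentary ones.

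**Figure D5:**
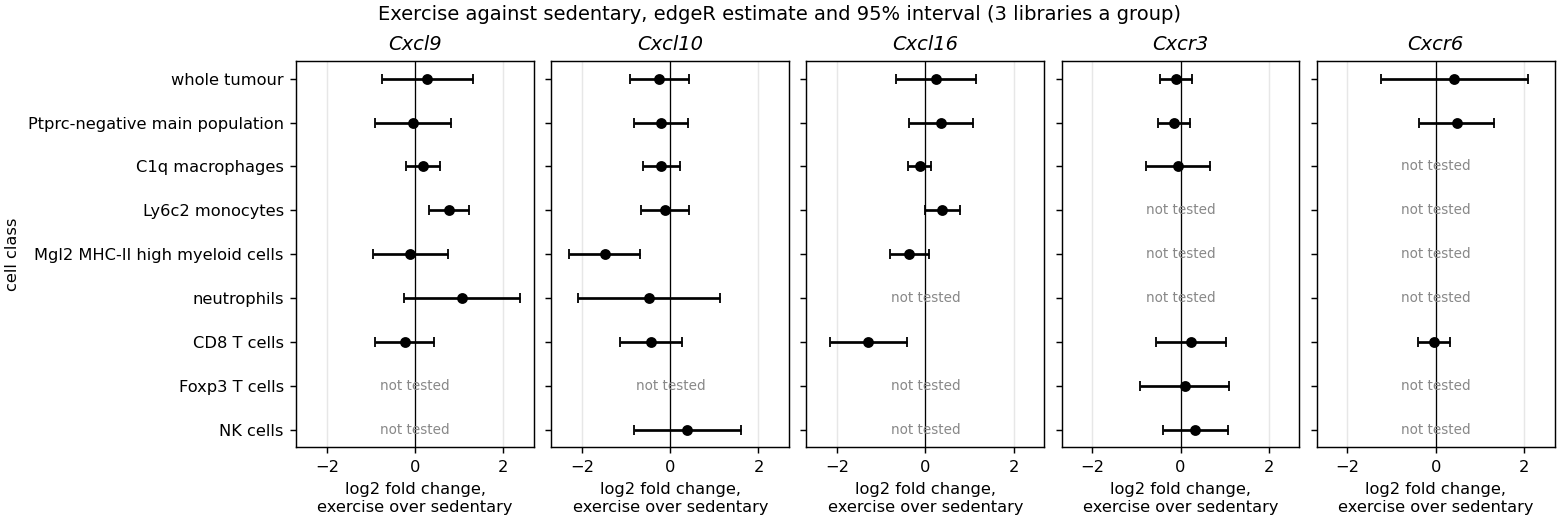
Log2 fold change of each member, exercise over sedentary, by edgeR with its 95% interval (3 libraries a group), in whole tumours and 8 cell classes, with pairs removed by the filter on low counts marked as not tested. Cxcl16 in macrophages (-0.39 to 0.14) and Cxcr6 in CD8 T cells (-0.39 to 0.32) have narrow intervals that include 0, Cxcl9 in monocytes lies at 0.76 and Cxcl10 in Mgl2 cells at -1.49, and no estimate passed after adjustment.

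Cxcr3 was found, at 1000 UMIs a cell, in 5.01 ± 3.81% of exercise and 4.52 ± 1.87% of sedentary CD8 T cells, and Cxcr6 in 35.7 ± 8.56% of exercise and 37.8 ± 2.701% of sedentary CD8 T cells (SD, n = 3 each). Over 4 receiving classes and both receptors, 0 of 8 shares passed an exact two-sided permutation test, whose smallest possible p is 0.1 with 3 against 3. That smallest value was reached by Cxcr6 in NK cells (1.71 ± 0.553% in exercise, 0.555 ± 0.262% in sedentary libraries, adjusted p = 0.8 by the exact permutation test). Shares of kept cells in the 10 sending or receiving classes gave exact permutation p of 0.2 to 1, with C1q macrophages at 9.58 ± 2.61% in exercise and 7.56 ± 1.44% in sedentary libraries.

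Of the pathway lists, 1 gene passed in 1 exercise comparison: Ccl4, an inflammatory chemokine, was higher in NK cells of exercise tumours (by 2.21 on the log2 scale, with an SE of 0.37, adjusted p = 0.0424 by edgeR). It was at 272, 168 and 83.3 CPM in exercise 5, 6 and 8, against 28.7, 46.7 and 32.5 CPM in sedentary 1, 2 and 3, with no overlap, and is the 1 gene called of 4267. In macrophages Ccl4 had the opposite sign, at -1.29 (SE 0.21, adjusted p = 0.469 by edgeR), with 69.3, 42.7 and 80.5 CPM in exercise 5, 6 and 8 and 143, 167 and 156 CPM in sedentary 1, 2 and 3. The interferon gamma list had 0 genes past the threshold in each of the 9 comparisons, and its estimates ran both ways. In CD8 T cells 0 were higher and 9 lower (median -0.14, against 0.0029 over all genes), in Mgl2 cells 1 higher and 8 lower (median -0.11), in macrophages 5 higher and 4 lower (median 0.10). In neutrophils 6 were higher and 1 lower (median 0.69, against 0.016 over all genes). Of these 3 had an unadjusted p under 0.05 by edgeR, as did 183 of 1906 genes. The other T cell chemokines in macrophages had 2 estimates higher and 3 lower (median -0.59). Of these 4 had an unadjusted p under 0.05 by edgeR, as did 346 of 10475 genes, and 0 passed. The other 4 lists had 0 genes past the threshold in each comparison. Ifng averaged 262 ± 126 CPM in exercise and 282 ± 128 CPM in sedentary CD8 T cells (SD, n = 3 each).

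Over the mean levels, as log2(CPM + 1), of 14 cell classes, the genes most like each member by Pearson correlation, among 11364 compared, were as follows. Cxcr6 was closest to Pdcd1 (r = 0.986), then Themis and Tff1. Cxcl16 was closest to Acvrl1 (0.958), Cxcl9 to Htra3 (0.939), Cxcl10 to Sod2 (0.938) and Cxcr3 to Hnrnpu (0.884). The classes share libraries and differ in depth, and these are descriptions of 14 points with no test.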

How the data were processed

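Whole tumours were dissociated and captured with 10x Genomics 3′ V3 chemistry, per the labels' protocols. The authors deposited UMI counts per gene and cell, made with Cell Ranger 6.1.2 on mm10 per the submitters' processing notes, while the file headers give software version 3.1.0. The counts were used as deposited. Filters required 300 genes and 500 UMIs in a cell and allowed mitochondrial transcripts up to 20%, and Scrublet (scanpy 1.11.5) marked 984 doublets, 1.14% to 2.74% a library, which were removed. Of 58351 barcodes, 51406 cells remained.

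Cells were put in classes by marker genes with a UMI. The minimum number of markers was set after marker levels, but not members, had been seen. The members and gene lists were chosen with earlier results of these data known. All members are named, and of each list those of the highest mean level and those that passed. Others are named after their values were seen.

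UMIs were summed per library and class, and libraries with at least 20 cells entered edgeR 4.0.16 (TMM, filterByExpr, quasi-likelihood test, Benjamini-Hochberg adjustment over all genes, threshold 0.05), with the library as a block between classes. DESeq2 1.42.0 was an alternative. Shares were tested with the exact permutation test over 20 relabellings. Depth was 97426009 to 131778565 UMIs a library. Intervals are 95% and cover counting error only where exact Poisson intervals are given. Some genes of the lists are not reported here.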

Additional observations from a re-analysis of the deposited data

Results flagged for a closer look

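Ccl4 gave opposite signs in NK cells, where it passed the test, and in C1q macrophages, where it did not (adjusted p = 0.469 by edgeR). Every exercise library was above every sedentary one in NK cells, where 8.74% of the genes tested were separated in either direction, and below every one in macrophages, where 8.03% were separated. The log2 ratio of mean CPM, exercise over sedentary, was 2.28 in NK cells and -1.28 in macrophages (n = 3 libraries a group). The difference between the classes was not tested. In NK cells the UMIs numbered 89, 78 and 28 in exercise 5, 6 and 8 and 7, 15 and 10 in sedentary 1, 2 and 3. Both classes were set side by side after the values were seen.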

How the results depend on the processing

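No paired analysis was possible because the exercise and sedentary libraries share no replicate number. Exercise comparisons were recomputed with another normalization, without the filter on low counts, with doublets kept, with a stricter gate, with DESeq2 and without each library. Members called, 0 in the main test, were 1 in monocytes (Cxcl9) and 1 in Mgl2 cells (Cxcl10) with no filter on low counts, and 0 to 1 in Mgl2 cells with a library left out. In class contrasts, members called were 2 with doublets kept for CD8 T cells against NK cells, where Cxcl9 passed at 0.80 (adjusted p = 0.0397 by edgeR). With a library left out they were 0 to 1 for CD8 against CD4 T cells (1 without sedentary 2, Cxcr6 at 1.13, adjusted p = 0.0154 by edgeR), 0 to 1 for Foxp3 against CD4 T cells and 0 to 2 for Havcr2 against Tcf7 CD8 T cells. The causes were not tested, though leaving out a library leaves fewer samples. No call reversed. Estimates that passed no threshold changed sign in 31 of 322 exercise settings. Some comparisons were not run by edgeR, with fewer than 20 cells in some libraries. They were the exercise comparison in Xcr1 and Ccr7 dendritic cells and in CD4 T cells, and Ccr7 against Xcr1 dendritic cells. For the same reason the stricter gate was not run for Mgl2 cells, neutrophils, Foxp3 T cells, CD8 or Foxp3 against CD4 T cells and the CD8 states. Low counts and few cells limit some classes: Foxp3 T cells, NK cells and Tcf7 CD8 T cells rest on few UMIs of each receptor.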
